A study of Mus musculus with 31 samples.

Results

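The genes described here are 10 members of the stress hormone axis, chosen by name: the corticosteroid receptors Nr3c1 and Nr3c2, the glucocorticoid targets Fkbp5, Tsc22d3 and Sgk1, the enzyme Hsd11b1, and the corticotropin-releasing hormone (CRH) genes Crh, Crhr1, Crhr2 and Crhbp. They were read in 31 bulk RNA-seq libraries of adult mouse thalamus, among 25497 genes with transcripts, and all 10 passed the filter on low counts that kept 14886 genes. The mice were offspring aged 90 days after birth (PND90). Their mothers had been kept in social isolation rearing (SIR) or were controls, with 7 male and 8 female SIR offspring against 8 male and 8 female controls, and the comparison asks whether the mother's housing is seen in the adult offspring. Strain, genotype, litter and the time of day of dissection are not given in the sources used here, and all groups share the tissue and the age.

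In this axis, neurons of the hypothalamus release CRH, which acts through the pituitary to raise adrenal corticosterone, the main glucocorticoid of mice. Corticosterone enters cells, where Hsd11b1 can regenerate it from an inactive form, and binds the glucocorticoid receptor (Nr3c1) and the mineralocorticoid receptor (Nr3c2), which move to the nucleus and act on genes such as Fkbp5, Tsc22d3 and Sgk1. Fkbp5 in turn lowers the receptor's hormone affinity, and CRH also acts inside the brain through its receptors Crhr1 and Crhr2, with Crhbp as the protein that binds free CRH. Thalamic relay neurons are known to carry corticosteroid receptors, while CRH neurons are better known from the hypothalamus and other neighbouring regions.

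Library totals ran from 13 to 25.74 M (mega) estimated counts, with a median of 23.28 M. Markers of thalamic neurons were measured in every library (10 of 10 tested), with a summed level of 1970 to 3390 TPM (transcript abundance scaled by length and library). Of the 16 libraries labelled female, 1 did not match its label: SIR female 5 held 75.2 CPM (counts scaled to the library total) of Y-linked transcripts, within the male range of 60.5 to 85.8, and the other 15 reached at most 1.02. It was kept in the group of its label, so sex below means the labelled sex, and the calls and the female differences that passed an unadjusted p of 0.05 were also computed without it. Calls that were lost are named below. The library numbers of all SIR animals lie below those of all controls, so housing and number range cannot be told apart.

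Set per length, as TPM over all 31 libraries, Tsc22d3 was the most abundant member at 145 ± 24.3 TPM (SD), followed by Sgk1 at 76.9 ± 40.4 and Nr3c1 at 60.8 ± 7.16. Hsd11b1 stood at 33.3 ± 5.47 TPM, Fkbp5 at 21.5 ± 5.76 and Nr3c2 at 16.3 ± 2.77. The CRH genes were low, with Crhr1 at 5.38 ± 1.25 TPM, Crhbp at 3.16 ± 1.62, Crh at 2.05 ± 1.32 and Crhr2 at 0.809 ± 0.798. Neighbours in this order whose SD ranges overlapped were Sgk1 and Nr3c1, Fkbp5 and Nr3c2, and, in sequence, the 4 CRH genes. The glucocorticoid receptor transcript was thus well above that of the mineralocorticoid receptor in this tissue, and the ligand Crh was among the rarest members, with 2 to 66 counts per library.

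**Figure D1:**
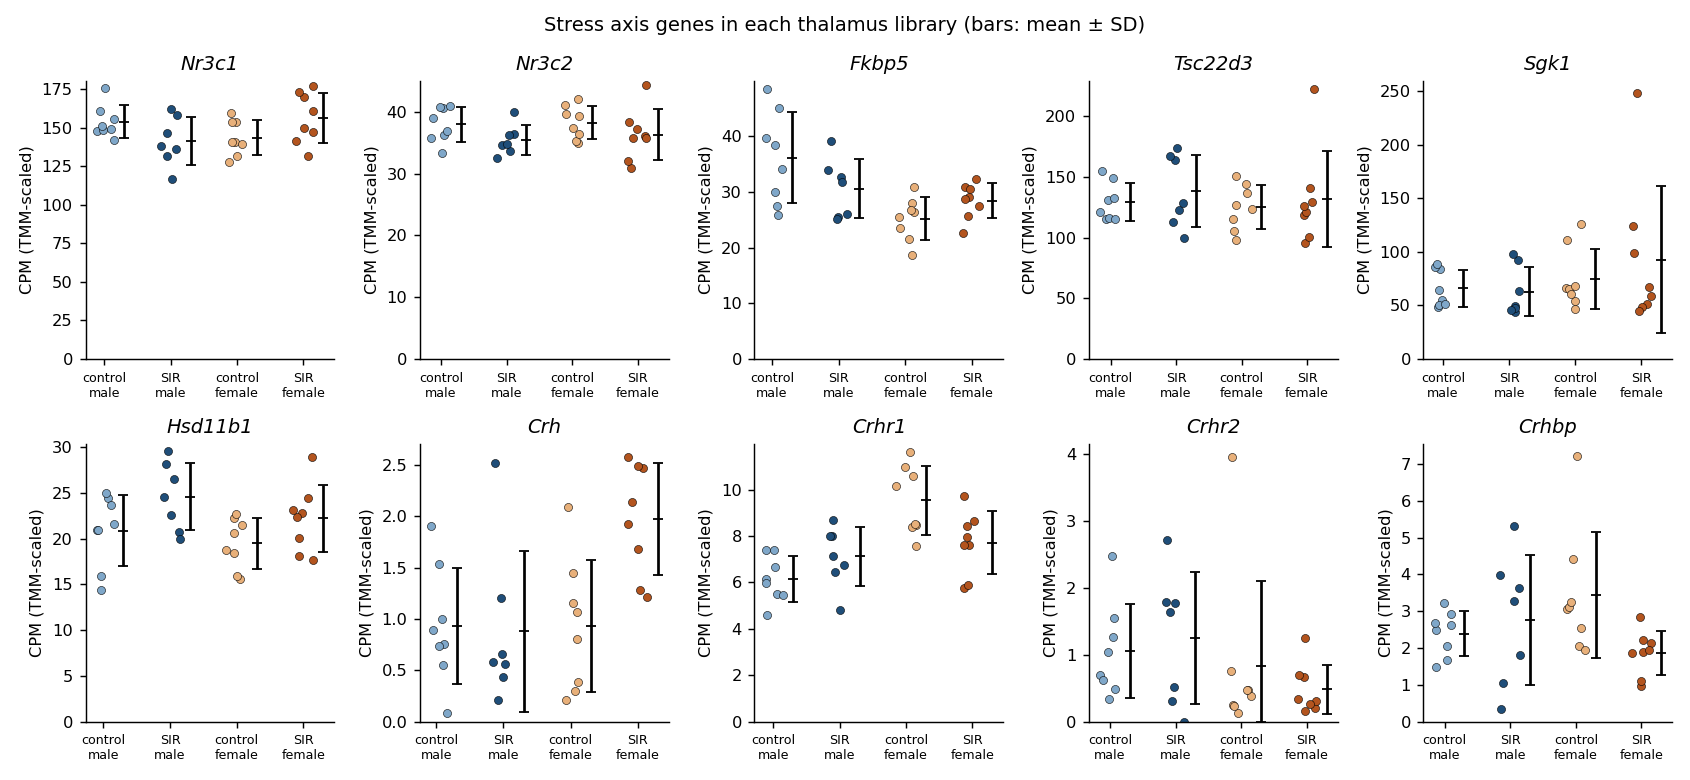
Level of each member in CPM (vertical axes, separate scales) in every library of the 4 groups; points are libraries and bars are mean ± SD, with the lower bar stopped at 0. The groups overlapped for all 10 genes by housing, and single libraries stood far above their group for Tsc22d3, Sgk1, Crh, Crhr2 and Crhbp.

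By maternal housing, edgeR called 0 of the 10 members in the mean over both sexes, in males or in females. The same test called 4.55% of all genes over both sexes, 1.33% in males and 4.62% in females. DESeq2 and limma-voom also called 0 members in each of these comparisons. At an unadjusted p below 0.05 there were 2 members over both sexes (Nr3c2 and Hsd11b1), 1 in males (Hsd11b1) and 3 in females (Crh, Crhr1 and Crhbp). By direction, 1.76% of all genes were called higher and 2.79% lower over both sexes, 0.282% and 1.05% in males, 2.38% and 2.24% in females, and 1.08% and 1.75% in the interaction. Unadjusted values below 0.05 were reached by 22.1%, 17.6% and 20% of all genes. The median log2 difference of the members was -0.017 over both sexes, 0.011 in males and 0.099 in females, against -0.006, -0.001 and -0.011 over all genes. The interaction, which is the male response minus the female response, was called for 0 members by edgeR, DESeq2 and limma-voom, against 2.83% of all genes, and 4 members (Nr3c1, Fkbp5, Crhr1 and Crhbp) had an unadjusted p below 0.05, as did 15.3% of all genes. With 1 library left out, the count called in males ran from 0 genes without control male 22 to 506 without control male 27, against 198 with all libraries.

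**Figure D2:**
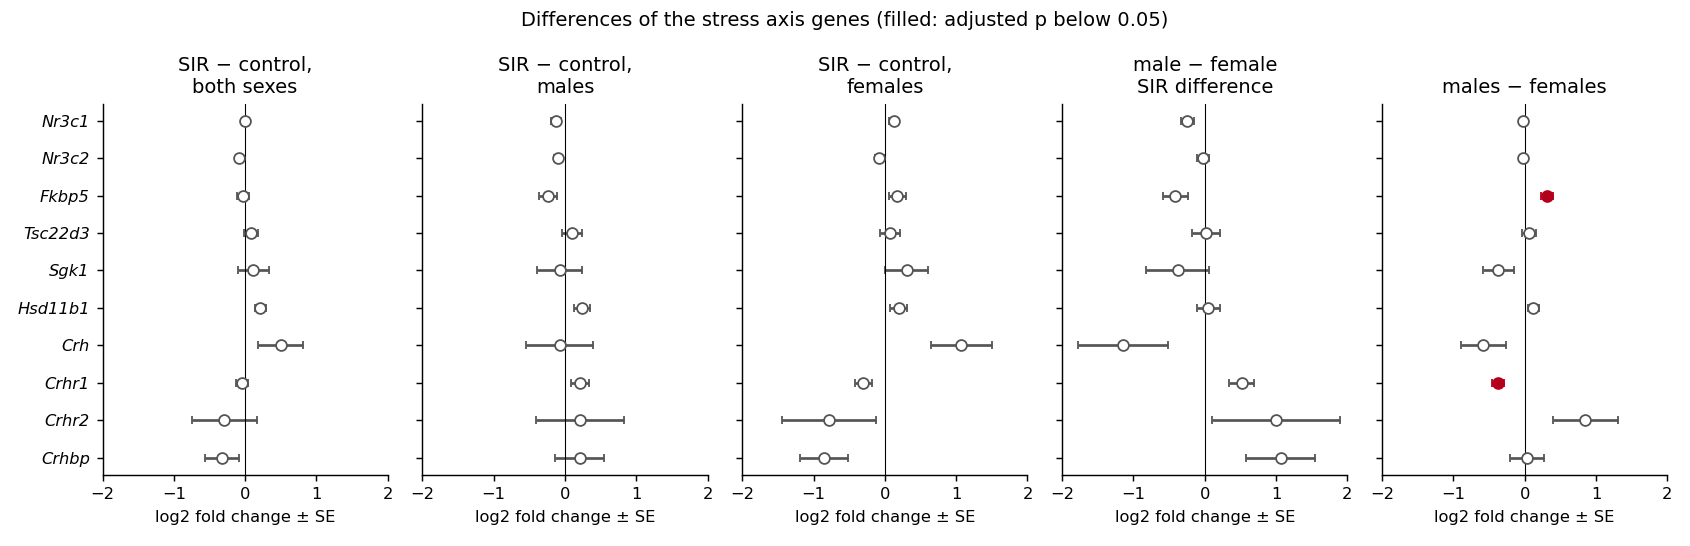
Log2 difference ± SE (horizontal axis) of each member in the 5 comparisons of the edgeR fit; filled red points have an adjusted p below 0.05. Only Fkbp5 and Crhr1 in males minus females passed, and the CRH genes carried the widest errors.

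Nr3c1, on chromosome 18, encodes the glucocorticoid receptor and varied little. Its level had a lowest, median and highest value of 117, 138 and 162 CPM in SIR males and of 142, 150 and 176 CPM in control males. In females it was 132, 155 and 177 CPM in SIR and 128, 141 and 160 CPM in control libraries. SIR males thus tended to lie low, with 2 of 7 above the control median, and SIR females high, with 7 of 8 above it, while the groups overlapped in both sexes. The log2 difference was -0.12 ± 0.07 (SE, edgeR adjusted p = 0.329) in males and 0.12 ± 0.06 (adjusted p = 0.274) in females. Over both sexes it was 0.00 ± 0.05 (adjusted p = 0.998). The interaction was -0.25 ± 0.09 (unadjusted p = 0.0109, adjusted p = 0.154) and did not pass the test, nor did it without the library labelled SIR female 5 (-0.28, adjusted p = 0.0808).

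Nr3c2, the mineralocorticoid receptor on chromosome 8, binds corticosterone with higher affinity than Nr3c1. It ran from 32.5 to 39.9 CPM (median 34.8) in SIR males and from 33.3 to 40.9 CPM (median 37.9) in control males. In females it ran from 30.9 to 44.3 CPM (median 35.9) in SIR and from 34.9 to 42 CPM (median 38.3) in control libraries. Only 3 of 15 SIR libraries lay above the control median, but the difference over both sexes was small, -0.09 ± 0.04 on the log2 scale (unadjusted p = 0.0498, edgeR adjusted p = 0.226). On log2(TPM + 1) values limma-trend called it (-0.26, adjusted p = 0.033). Of the paired receptors, Nr3c1 and Nr3c2 correlated with r = 0.43 (rho = 0.44) over the 31 libraries after centring within groups, which did not pass over the 45 member pairs (permutation p = 0.0149, adjusted p = 0.0744).

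Hsd11b1, on chromosome 1, is the reductase that makes active glucocorticoid inside cells. SIR males ran from 20 to 29.6 CPM (median 24.6) and control males from 14.4 to 25 CPM (median 21.3). SIR females ran from 17.7 to 28.9 CPM (median 22.6) and control females from 15.6 to 22.7 CPM (median 19.7). The SIR libraries were the higher ones in both sexes, with 5 of 7 males and 6 of 8 females above the control median, and the ranges overlapped. The log2 difference was 0.24 ± 0.12 in males and 0.19 ± 0.11 in females. Over both sexes it was 0.22 ± 0.08 (unadjusted p = 0.0122, edgeR adjusted p = 0.111), so it did not pass the test over all genes. Across libraries, Hsd11b1 moved with the markers of oligodendrocytes (r = 0.56, rho = 0.60, adjusted p = 0.0145) and of endothelial cells (r = 0.56, rho = 0.54, adjusted p = 0.0143). These are group-centred correlations over 31 libraries with permutation p-values, adjusted over the 200 pairs of a member and a marker or pathway list. The median summed oligodendrocyte level was 8760 TPM in SIR males and 7050 TPM in control males, but 8000 TPM in SIR females and 9710 TPM in control females, and the part of either marker list in the Hsd11b1 values was not tested. Without centring, the correlation with the oligodendrocyte markers was 0.26 (p = 0.152). The length slope, the trend of a library's levels with transcript length, averaged -0.042 in SIR and 0.006 in control males, and 0 and 0.031 in females. Its group-centred correlation was -0.31 with Hsd11b1 (adjusted p = 0.272) and 0.32 with Nr3c2 (adjusted p = 0.258). Under 43 alternatives, removal of this trend included, the Hsd11b1 difference over both sexes ran from 0.18 to 0.26 and was called in 0. In bulk tissue, fewer cells of a type and less RNA per cell cannot be told apart, here or below.

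Sgk1, on chromosome 10, encodes a kinase that acts on ion channels and transporters. Its transcripts start at separate sites, and 3 of its 6 windows are shown: those of its most abundant transcripts, Sgk1-201 and Sgk1-204, and that of Sgk1-202, which holds the palindromic element that both corticosteroid receptors can bind. Sgk1-202 itself was not among the Sgk1 transcripts with a mean share of at least 5%. The RefSeq windows of GRCm38.p6 hold the 250 bases before each annotated start, on the plus strand of chromosome 10, 5′ to 3′. Capitals mark the single hexamer AGAACA, which reads TGTTCT on the other strand, and the full element, where AGAACA is followed after 3 bases by its reverse complement. A hexamer inside the full element also counts as a hexamer. The windows overlap no exon of the annotation used. The windows of Sgk1-202 (chr10:21993640-21993889) and Sgk1-201 (chr10:21994416-21994665) lie in introns of longer Sgk1 transcripts such as Sgk1-204, and that of Sgk1-204 (chr10:21881934-21882183) lies in no transcript.
Sgk1-202 window: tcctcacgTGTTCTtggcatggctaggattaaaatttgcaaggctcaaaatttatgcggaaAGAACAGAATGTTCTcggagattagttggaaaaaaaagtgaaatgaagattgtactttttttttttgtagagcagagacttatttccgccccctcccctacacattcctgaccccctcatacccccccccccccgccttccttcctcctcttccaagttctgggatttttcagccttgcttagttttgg
Sgk1-201 window: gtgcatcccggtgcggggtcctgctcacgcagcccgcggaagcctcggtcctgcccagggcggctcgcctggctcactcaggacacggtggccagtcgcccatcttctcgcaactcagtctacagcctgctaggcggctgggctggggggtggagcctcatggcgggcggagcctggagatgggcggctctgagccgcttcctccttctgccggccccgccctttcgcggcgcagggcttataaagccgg
Sgk1-204 window: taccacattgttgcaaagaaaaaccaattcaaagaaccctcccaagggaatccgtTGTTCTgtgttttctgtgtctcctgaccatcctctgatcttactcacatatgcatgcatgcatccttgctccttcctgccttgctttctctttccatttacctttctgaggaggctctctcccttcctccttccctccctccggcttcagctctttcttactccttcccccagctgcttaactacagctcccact

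The full element, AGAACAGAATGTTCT, began 189 bases before the Sgk1-202 start and 965 bases before that of Sgk1-201. Over 32851 windows of the same length, searched on both strands, 3 held it (0.00913%). The Sgk1-201 window held neither the element nor the hexamer, and the Sgk1-204 window held 1 hexamer, a motif found in 16.1% of all windows. Of the windows not shown, 1 of Sgk1 (chr10:21991973-21992222) and 1 of Tsc22d3 (chrX:140600523-140600772) each held 1 hexamer. RefSeq windows were matched for 8 of the 10 members (15 windows), not for Nr3c1 and Crh, and Sgk1 was the single member with the full element. A looser core, in which GNACA is followed after 3 bases by its reverse complement, was in 0.387% of windows. It was found for Sgk1 and, among 18 matched genes of a list of 22 glucocorticoid-induced genes, for Map3k6 and Mt1. These cores are printed with 10 bases on each side, plus strand, core in capitals, from chr10:21993692-21993724, chr4:133240627-133240659 and chr8:94178985-94179017 of GRCm38.p6. Map3k6 is a stress-activated kinase and Mt1 a metallothionein. Of the 22 windows of the matched list genes, 2 held the core, 2 the hexamer (Bcl6 and Sult1a1) and 0 the full element. A match in letters is a description and not a shown binding site.
Sgk1 core: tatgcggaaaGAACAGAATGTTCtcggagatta
Map3k6 core: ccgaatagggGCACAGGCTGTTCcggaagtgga
Mt1 core: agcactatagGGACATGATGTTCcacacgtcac

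The Sgk1 level ran from 43.7 to 97.6 CPM (median 49.3) in SIR males and from 48.3 to 88.6 CPM (median 59.7) in control males. In females it ran from 44.4 to 248 CPM (median 62.8) in SIR and from 46.8 to 126 CPM (median 65.6) in control libraries. The highest value belonged to SIR female 10 and the next in its group was 124 CPM, so the medians of the female groups lay close while 1 library reached far above. The log2 difference was -0.08 ± 0.32 (SE, edgeR adjusted p = 0.946) in males and 0.30 ± 0.30 (adjusted p = 0.622) in females. Without SIR female 10 the female difference was -0.09 (adjusted p = 0.878).

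The transcripts of Sgk1 differed in how they varied. Sgk1-201 took 61 ± 10.4% (SD, n = 31) of the gene's counts and ran from 21.8 through a median of 36.3 to 203 CPM. Sgk1-204, whose start lies 112.5 kb before that of Sgk1-201, took 26.9 ± 9.4% and ran from 10.2 through 17.3 to 23 CPM. The range of the gene followed that of Sgk1-201: in SIR female 10, with 203 CPM of Sgk1-201, Sgk1-204 stood at 15.7 CPM. With the mean of the 22 induced genes, Sgk1-201 correlated at r = 0.78 (rho = 0.70, and 0.68 without the 2 libraries farthest from the median), Sgk1-206 at 0.61 and Sgk1-204 at -0.11 (rho = -0.05). Kallisto splits reads between transcripts that share exons, so these levels are estimates.

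Tsc22d3, on the X chromosome, encodes the leucine zipper protein GILZ, an anti-inflammatory product of the glucocorticoid receptor. It ran from 99.8 to 174 CPM (median 129) in SIR males and from 115 to 155 CPM (median 126) in control males. In females it ran from 95.8 to 222 CPM (median 124) in SIR and from 98 to 151 CPM (median 125) in control libraries. The medians were close and SIR female 10 was again the highest. The log2 difference was 0.10 ± 0.14 (SE, edgeR adjusted p = 0.798) in males and 0.07 ± 0.14 (adjusted p = 0.815) in females, and -0.07 (adjusted p = 0.758) in females without SIR female 10. Tsc22d3-201 took 64.7 ± 5.48% of its counts and Tsc22d3-202, annotated as a transcript without a reading frame, 29.6 ± 5.01%. Their starts lie 519 bases apart. Tsc22d3-201 ran from 52.5 through 77.6 to 177 CPM and correlated with the induced genes at r = 0.91 (rho = 0.89), while Tsc22d3-202 ran from 30.3 through 37.2 to 48.4 CPM and correlated at r = 0.24. As in Sgk1, the correlation with the induced genes was high for 1 abundant transcript and low for another, but the difference between the transcripts was not tested.

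Fkbp5, on chromosome 17, encodes the co-chaperone that holds the glucocorticoid receptor in a state of low hormone affinity, and it differed by labelled sex. Control males ran from 25.9 to 48.4 CPM (median 36.3) and SIR males from 25.2 to 39.1 CPM (median 31.8). Control females ran from 18.6 to 30.8 CPM (median 25.9) and SIR females from 22.6 to 32.4 CPM (median 29). Of the 15 male libraries 11 lay above the female median, 0 of 16 female libraries lay above the male median, and the ranges overlapped. Males minus females was 0.31 ± 0.09 on the log2 scale (edgeR adjusted p = 0.0193), a comparison in which 10.1% of all genes were called, 4.44% as higher in males. Without the library labelled SIR female 5 it was 0.32 (adjusted p = 0.0204). The call was lost on log2(TPM + 1) values (0.28, adjusted p = 0.107) and without 8 libraries whose numbers lie apart (0.27, adjusted p = 0.0933). By housing, Fkbp5 was -0.24 ± 0.12 (unadjusted p = 0.0578, adjusted p = 0.302) in males and 0.17 ± 0.12 (adjusted p = 0.443) in females. The interaction was -0.41 ± 0.17 (unadjusted p = 0.0216, adjusted p = 0.217), so opposite signs in the sexes did not pass the test.

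The targets were then compared with each other over the 31 libraries, on log2 CPM with a prior count of 2. Tsc22d3 and Sgk1 correlated with r = 0.68 and rho = 0.62 (permutation p = 9e-05 and 0.00025, adjusted over the 3 pairs to 0.00027 and 0.00075). Without the 2 libraries farthest from the median of the first gene of the pair, here Tsc22d3, this was r = 0.49 (p = 0.00685). Fkbp5 and Tsc22d3 correlated with r = 0.43 and rho = 0.47 (p = 0.0155 and 0.00821, adjusted p = 0.0233 and 0.0123), and with r = 0.49 (p = 0.00656) without the 2 farthest. Fkbp5 and Sgk1 did not pass, with r = 0.18 and rho = 0.19 (p = 0.323 and 0.303, adjusted p = 0.323 and 0.303) and r = 0.10 without the 2 farthest. Centred within the 4 groups, the correlations were 0.75 for Tsc22d3 and Sgk1 (p = 1e-05, the smallest the permutations can give), 0.49 for Fkbp5 and Tsc22d3 (p = 0.00469) and 0.35 for Fkbp5 and Sgk1 (p = 0.0513).

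Each pair was also read within each housing. Among the 15 SIR libraries, Tsc22d3 and Sgk1 correlated with r = 0.82 (permutation p = 0.00039), Fkbp5 and Tsc22d3 with 0.64 (p = 0.00994) and Fkbp5 and Sgk1 with 0.50 (p = 0.0581). Among the 16 control libraries the values, again with permutation p, were 0.31 (p = 0.236), 0.42 (p = 0.11) and -0.03 (p = 0.916), so no pair passed there. For Tsc22d3 and Sgk1 the values by group were 0.92 in SIR females, 0.90 in SIR males, 0.59 in control females and -0.05 in control males. The difference between SIR and control correlations was not tested, and without SIR female 10 the pooled value of Tsc22d3 and Sgk1 was 0.52 (p = 0.00298).

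**Figure D3:**
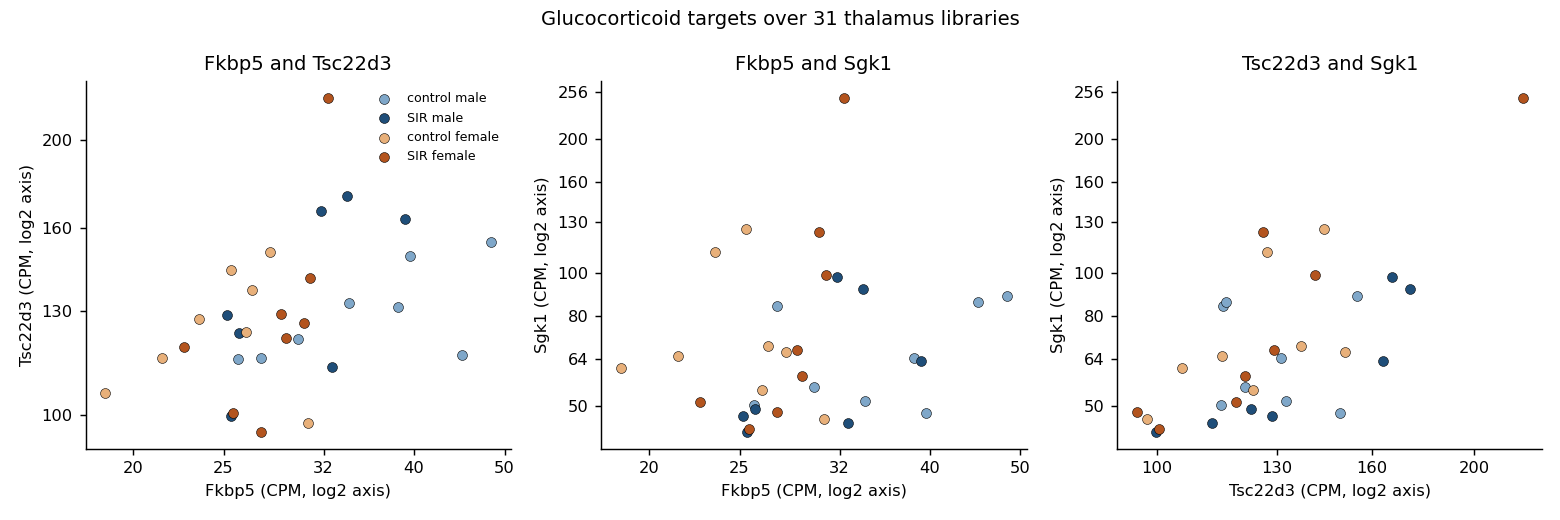
CPM of the 3 target pairs on log2 axes, 1 point a library, coloured by group. SIR female 10 lies at the top for Tsc22d3 and Sgk1, and the pair Fkbp5 and Sgk1 shows the least relation.

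The targets moved together with other genes known to be induced by glucocorticoids. The group-centred mean of Fkbp5, Tsc22d3 and Sgk1 correlated positively with 22 of 22 genes of the induced list, with a median r of 0.71 against 0.01 over 14883 genes. Of the list, 19 of 22 lay above r = 0.5, as did 2.57% of all genes. The highest were Klf15, a transcription factor of amino acid metabolism (0.85), Nfkbia, the inhibitor of NF-kappaB (0.84), and Cdkn1a, the cell cycle inhibitor p21 (0.83). Hif3a (0.77), the metallothionein Mt2 (0.75), the mTOR inhibitor Ddit4 (0.74), the clock gene Per1 (0.64) and the lipid droplet gene Plin4 (0.60) followed, and Bcl6 (0.49), the phosphatase Dusp1 (0.45) and Angptl4 (0.41) were the lowest. The list was chosen with earlier results of these data known, and the libraries share all these values. The correlations, and the contrast with all genes, are therefore a description. By maternal housing 0 of these 22 genes were called by edgeR, DESeq2 or limma-voom over both sexes, in males, in females or in the interaction. At an unadjusted p below 0.05 by edgeR there were 4, 2, 1 and 0. Of all genes, edgeR called 4.55%, 1.33%, 4.62% and 2.83%, with 22.1%, 17.6%, 20% and 15.3% at an unadjusted p below 0.05. The median log2 difference of the list was 0.012, 0.013, 0.108 and -0.021, against -0.006, -0.001, -0.011 and 0.004 over all genes.

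**Figure D4:**
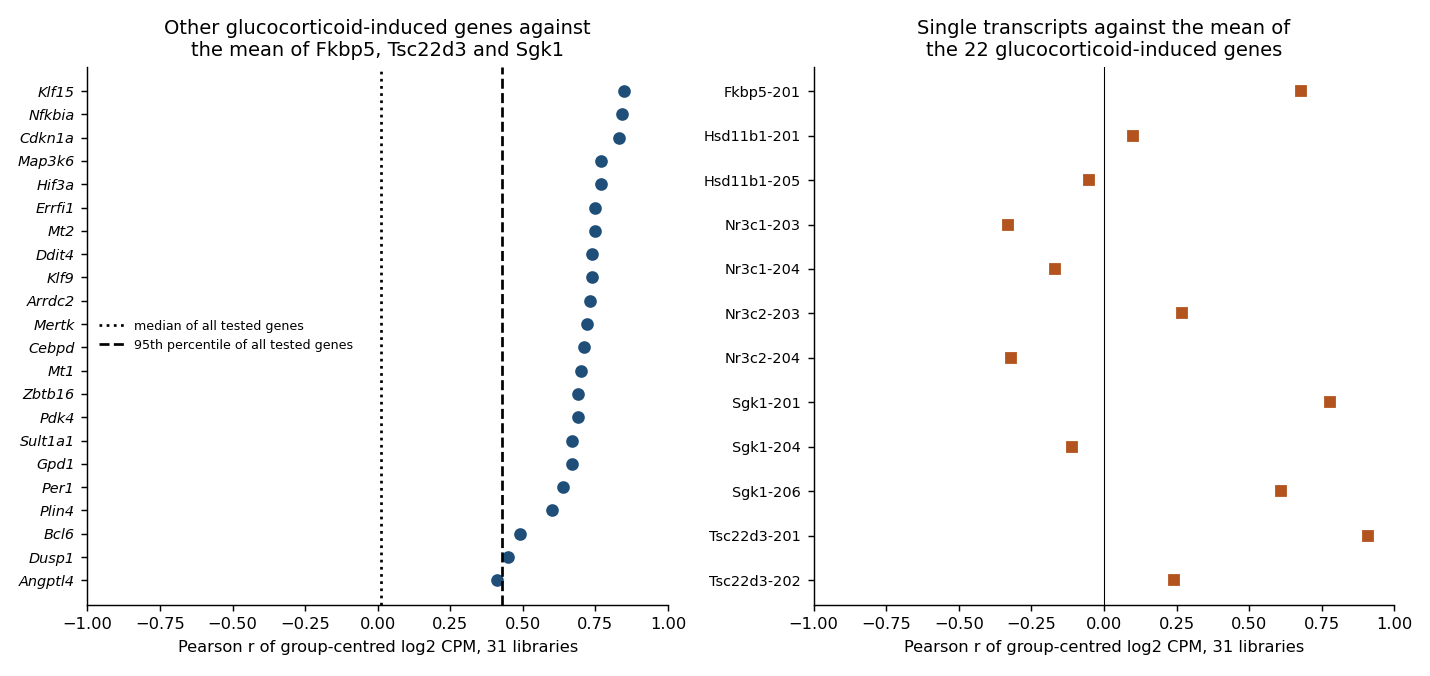
Left, correlation r of each of 22 glucocorticoid-induced genes with the mean of the 3 targets, with the median (0.01, dotted) and the 95th percentile (0.43, dashed) of all genes; right, r of 12 member transcripts with the mean of the 22 genes. Sgk1-201 and Tsc22d3-201 stand high (0.78 and 0.91) while Sgk1-204 (-0.11) and Tsc22d3-202 (0.24) stand low.

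Each target was also set against the lists singly, group-centred, with permutation p-values adjusted over the 200 pairs, of which 31 passed. With the induced list, Tsc22d3 had r = 0.90 (rho = 0.88, adjusted p = 0.000286), Sgk1 0.79 (rho = 0.72, adjusted p = 0.000286) and Fkbp5 0.64 (rho = 0.70, adjusted p = 0.00127). Astrocyte markers moved with 2 of the 3 targets, at 0.71 for Fkbp5 (rho = 0.72, adjusted p = 0.000286) and 0.64 for Tsc22d3 (rho = 0.62, adjusted p = 0.00133). The value of Tsc22d3 depended on Gjb6, an astrocyte connexin gene: without it the correlation was 0.46 for Tsc22d3 and 0.70 for Fkbp5. Sgk1 did not pass with the astrocyte markers (0.35, rho = 0.23, adjusted p = 0.188, and 0.21 without Gjb6). Without centring within groups, Fkbp5 and the astrocyte markers correlated at 0.31 (permutation p = 0.0889). Over the 8 astrocyte markers, the correlation with the induced list ran from 0.88 for Gjb6 and 0.53 for the enzyme Aldoc down to 0.06 for the transporter Slc1a3 and -0.06 for the filament gene Gfap, and the summed astrocyte level ran from 2100 to 2610 TPM in all groups. Clock genes correlated at 0.63 with Fkbp5 (rho = 0.50, adjusted p = 0.00246) and at 0.48 with Tsc22d3 (rho = 0.59, adjusted p = 0.048). The clock list shares Per1 with the induced list, and the part of either list in the target values was not tested.

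The CRH system held the other gene that differed by sex. Crhr1, on chromosome 11, encodes the receptor with the higher affinity for CRH. Control males ran from 4.58 to 7.4 CPM (median 6.06) and control females from 7.55 to 11.6 CPM (median 9.33). Each control male thus lay below each control female, but the share of all genes with such a separation was not counted. SIR males ran from 4.81 to 8.68 CPM (median 7.14) and SIR females from 5.75 to 9.73 CPM (median 7.79), and these overlapped. Males minus females was -0.37 ± 0.09 on the log2 scale (edgeR adjusted p = 0.00645), with 14 of 16 female libraries above the male median, and 5.65% of all genes were called as lower in males. Without the library labelled SIR female 5 it was -0.38 (adjusted p = 0.00819). By housing, SIR females had lower values than control females and SIR males higher values than control males, with log2 differences of -0.30 ± 0.12 (unadjusted p = 0.0149, adjusted p = 0.134) and 0.21 ± 0.12 (adjusted p = 0.385). The female value without the library labelled SIR female 5 was -0.30 (adjusted p = 0.179). The interaction was 0.52 ± 0.17 (unadjusted p = 0.00504, adjusted p = 0.102) and passed only when SIR male 15 was left out (0.60, adjusted p = 0.0381).

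Crh, on chromosome 3, encodes the releasing hormone itself. SIR females ran from 1.21 to 2.58 CPM (median 2.03) and control females from 0.214 to 2.09 CPM (median 0.935). SIR males ran from 0.208 to 2.52 CPM (median 0.578) and control males from 0.0826 to 1.9 CPM (median 0.828). All 8 SIR females lay above the control female median, and 1 of 8 control females lay above the SIR median, so the groups overlapped. The female difference was 1.07 ± 0.43 on the log2 scale (unadjusted p = 0.0181, edgeR adjusted p = 0.149), and 1.15 (adjusted p = 0.15) without the library labelled SIR female 5. The male difference was -0.08 ± 0.46 (adjusted p = 0.963), and -0.61 without SIR male 13. The interaction, -1.15 ± 0.63 (adjusted p = 0.406), did not pass the test.

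Crhbp, on chromosome 13, encodes the binding protein that holds CRH away from its receptors. SIR females ran from 0.963 to 2.83 CPM (median 1.91) and control females from 1.94 to 7.2 CPM (median 3.1). SIR males ran from 0.332 to 5.3 CPM (median 3.28) and control males from 1.49 to 3.22 CPM (median 2.55). Of the SIR females 0 of 8 lay above the control median, while the ranges overlapped. The female difference was -0.86 ± 0.34 (unadjusted p = 0.0164, edgeR adjusted p = 0.141), and -0.64 (adjusted p = 0.312) without control female 31, its highest library. Without the library labelled SIR female 5 it was -0.97 (adjusted p = 0.125). With 3 components of the region marker scores in the fit it was 0.07 (adjusted p = 0.941). The male difference was 0.21 ± 0.35 (adjusted p = 0.827), and the interaction, 1.07 ± 0.48 (unadjusted p = 0.0346, adjusted p = 0.276), did not pass.

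Crhr2, on chromosome 6, encodes the receptor that prefers the urocortins. It was the rarest member, with 0 to 85 counts per library. It ran from 0 to 2.71 CPM (median 1.64) in SIR males and from 0.344 to 2.49 CPM (median 0.872) in control males. In females it ran from 0.16 to 1.25 CPM (median 0.323) in SIR and from 0.128 to 3.96 CPM (median 0.432) in control libraries. The value of 0 was that of SIR male 14, where 3 counts, the limit that a count of 0 allows, correspond to 0.125 CPM. The highest was control female 20, and the next in its group was 0.755 CPM. Males minus females was 0.85 ± 0.45 (edgeR adjusted p = 0.226) with all libraries, and 1.40 ± 0.39 (adjusted p = 0.0169) without control female 20. The housing difference was -0.79 ± 0.66 (adjusted p = 0.543) in females and 0.30 without that library, so its sign rested on 1 library.

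Levels of these low CRH genes moved with markers of neighbouring regions. Against the hypothalamus list (9 of 10 tested), Crhr2 had r = 0.84 (rho = 0.78, adjusted p = 0.000286), Crh 0.66 (rho = 0.63, adjusted p = 0.000889) and Crhbp 0.55 (rho = 0.49, adjusted p = 0.0152). The value of Crhbp was 0.32 (permutation p = 0.0897) without the 2 farthest libraries, and Crhbp correlated at 0.58 (rho = 0.56, adjusted p = 0.00487) with midbrain and monoamine neuron markers. Crh also passed with reticular and other GABA neuron markers (0.55, rho = 0.56, adjusted p = 0.0141), whose summed level had a median of 1230 TPM in SIR and 930 TPM in control females. Against thalamic neuron markers the same genes had r = -0.74 (Crhr2, rho = -0.70), -0.68 (Crh, rho = -0.62) and -0.64 (Crhbp, rho = -0.69), with adjusted p of 0.000286, 0.0005 and 0.0012. Nr3c1 went the other way, at 0.62 with thalamic markers (rho = 0.62, adjusted p = 0.00373) and -0.52 with hypothalamic markers (rho = -0.51, adjusted p = 0.0257). Of the cell type and region lists, Crhr1 passed with reticular and other GABA neurons alone (0.50, rho = 0.41, adjusted p = 0.0372), which was 0.36 (p = 0.0583) without the 2 farthest libraries.

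The summed hypothalamic level differed widely between libraries of 1 group. It ran from 43.1 to 1840 TPM (median 1070) in SIR males and from 192 to 1580 TPM (median 1210) in control males. In females it ran from 263 to 1660 TPM (median 983) in SIR and from 78.2 to 1350 TPM (median 215) in control libraries. It was therefore lower by median in control females than in SIR females, the same side as for Crh and the opposite side to Crhr2 and Crhbp. The summed thalamic level was 2430 and 2680 TPM by median in SIR and control males, and 2560 and 2460 TPM in SIR and control females. No marker of a cell type or region was at 0 in all libraries. With the 3 region components in the fit, the female difference of Crh was 0.91 (adjusted p = 0.208). The part of the region markers in the CRH values was otherwise not tested.

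**Figure D5:**
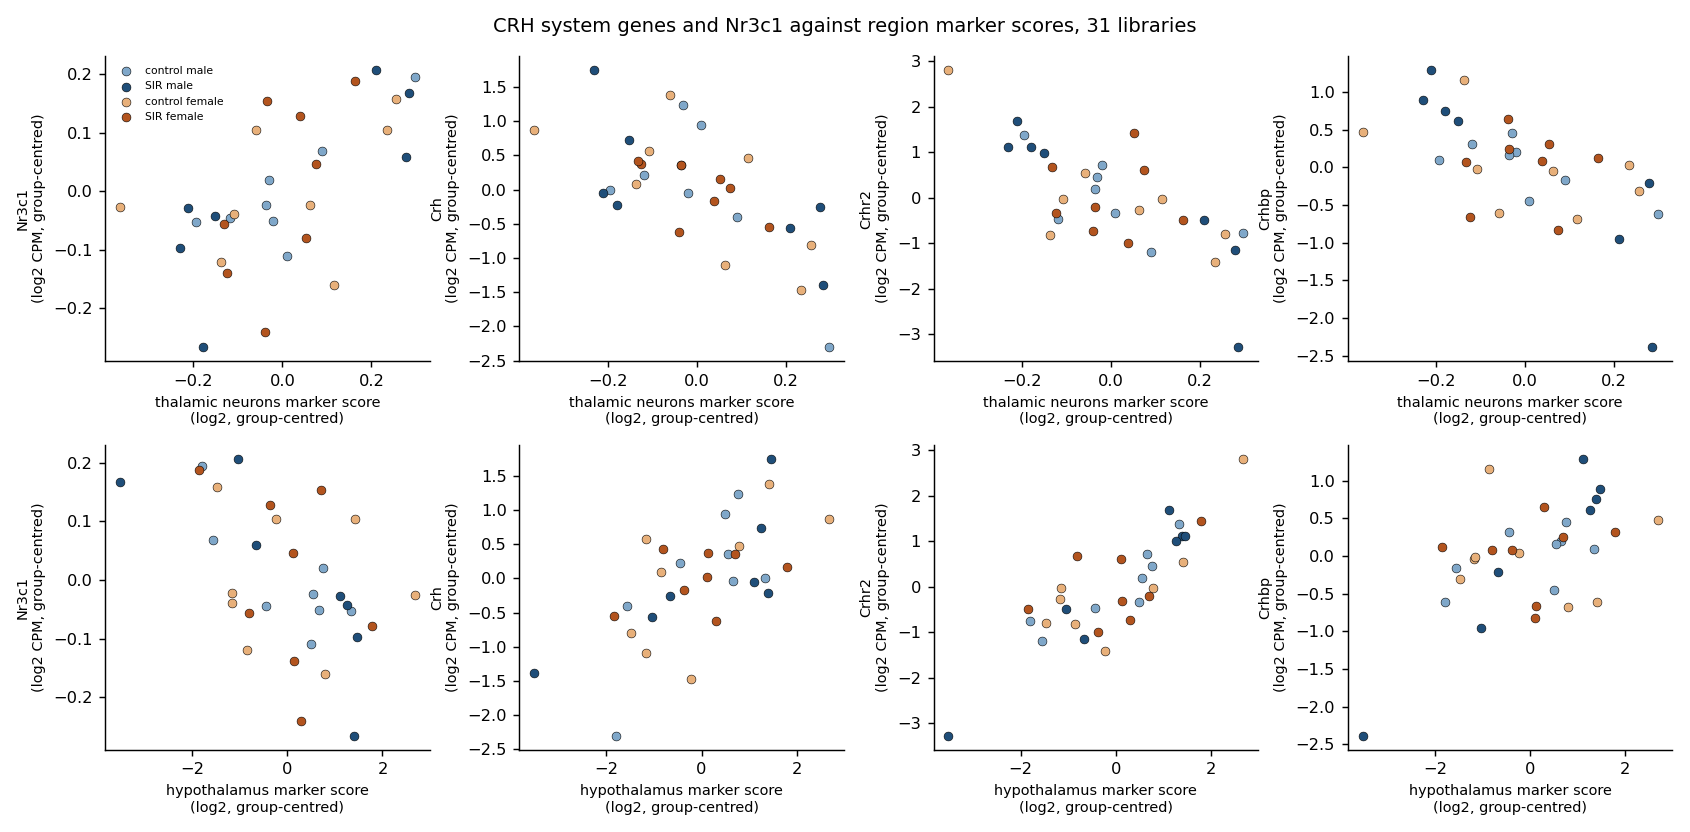
Group-centred log2 CPM of Nr3c1, Crh, Crhr2 and Crhbp (vertical axes) against the group-centred score of thalamic neuron markers (top) and hypothalamus markers (bottom), 1 point a library. Crhr2 has the steepest relation (r = -0.74 and 0.84), and Nr3c1 runs the opposite way (0.62 and -0.52).

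Among the 45 member pairs, 6 passed after centring within groups: Tsc22d3 and Sgk1 (0.75), Crh and Crhr2 (r = 0.58, rho = 0.58, adjusted p = 0.0164), Crhr2 and Crhbp (r = 0.57, rho = 0.45, adjusted p = 0.0166), Fkbp5 and Tsc22d3 (0.49), Tsc22d3 and Crhr2 (-0.49) and Nr3c1 and Crhbp (-0.47), the last 3 with an adjusted permutation p of 0.0486. By rank correlation Crhr2 and Crhbp, Tsc22d3 and Crhr2, and Nr3c1 and Crhbp did not pass (each adjusted p = 0.0663). The pair Crhr2 and Crhbp had r = 0.35 (p = 0.0589) without the 2 farthest libraries. The ligand and its rarer receptor were thus correlated across libraries, and both were correlated with the hypothalamic markers given above.

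The genes whose pattern was most like each member, by group-centred r over 31 libraries and 14103 genes, differed between the members. For Nr3c1 they were Nfe2l3 (0.81), Mef2a (0.79) and Prox1 (0.75), and for Nr3c2 Pde12 (0.65), Prkcb (0.63) and Homer1 (0.62). Fkbp5 was closest to Zbtb16 (0.78), Gpt2 (0.75) and Mt2 (0.73), Tsc22d3 to Gjb6 (0.95), Fam20a (0.89) and Smim3 (0.87), and Sgk1 to Arl4d (0.89), Nfkbia (0.89) and Plekhf1 (0.86). The mean of the 3 targets was closest to Klf15 (0.85) and to Slc2a1, Plekhf1, Nfkbia and Smim3 (each 0.84). Hsd11b1 was closest to Cyp2j6 (0.76), Chil1 (0.74) and Lyrm4 (0.73). In the CRH system, Crh was closest to Parm1 (0.80), Tent5a (0.80) and Cd24a (0.79), Crhr1 to Fgf11 (0.81), Ntng2 (0.79) and Kcns3 (0.76), Crhr2 to Celf6, Pnma1 and Spint2 (each 0.94), and Crhbp to Dgkk (0.86), Rasgrf2 (0.83) and Pold3 (0.82). The likeness was highest for Tsc22d3 and Crhr2 and lowest for Nr3c2.

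Within the receptors, Fkbp5 and Hsd11b1, 1 or 2 transcripts took most of the counts. Nr3c1-204 took 77.5 ± 6.01% of the receptor's counts and Nr3c1-203 16.9 ± 5.57%, Nr3c2-203 took 67.6 ± 9.82% and Nr3c2-204 27.7 ± 8.47%, Fkbp5-201 took 93.1 ± 3.19%, and Hsd11b1 was split between Hsd11b1-205 (50.7 ± 8.36%) and Hsd11b1-201 (45.7 ± 9.35%). In 10 exact permutation tests of SIR against control within a sex, 0 passed. The smallest p was that of Nr3c1-204 in males, 81.4 ± 4.51% (n = 7) against 75.9 ± 7.38% (n = 8), with an exact two-sided p of 0.112 (adjusted p = 0.66).

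Some partners of the receptors were called by housing, with small differences and not under all alternatives. Of 20 chaperones and coregulators (20 tested), edgeR called 1 higher and 3 lower over both sexes, beside 1.76% of all genes higher and 2.79% lower. These were Stub1, a ubiquitin ligase of chaperone clients (0.12 ± 0.03, adjusted p = 0.0477), the acetyltransferases Ep300 (-0.15 ± 0.04, adjusted p = 0.0381) and Crebbp (-0.11 ± 0.03, adjusted p = 0.0445), and the Mediator subunit Med1 (-0.14 ± 0.04, adjusted p = 0.0472). Under 43 alternatives these were called in 15, 22, 16 and 11, and without the library labelled SIR female 5 in 0 of 4 cases (adjusted p = 0.0766, 0.0562, 0.0732 and 0.0672). The length slope given for Hsd11b1 was lower by mean in SIR than in control libraries of both sexes. With the length trend removed, edgeR called 97 of all genes over both sexes in place of 678, and 38 in males in place of 198. In males the corepressor Ncor1 fell by 0.19 on the log2 scale (SE 0.04, adjusted p = 0.0221) and Crebbp by 0.19 (SE 0.05, adjusted p = 0.0304), both called in 34 of 43 alternatives, where 1.05% of all genes were called lower. In females and in the interaction edgeR called 0 of 20 (6 and 7 at an unadjusted p below 0.05), limma-voom called 0 in both, and DESeq2 called 0 and 1 (Ncor1). Of all genes, edgeR called 4.62% and 2.83% there, with 20% and 15.3% at an unadjusted p below 0.05. The median log2 difference of the list over both sexes was -0.028. The most abundant members were the chaperones Hspa8 (4260 ± 327 TPM) and Hsp90ab1 (1730 ± 105 TPM).

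Among 14 genes of the CRH family and pituitary axis (10 tested), the prohormone convertase Pcsk2 rose in SIR females by a log2 difference of 0.34 ± 0.08 (edgeR adjusted p = 0.0127), with an interaction of -0.51 ± 0.12 (adjusted p = 0.0103). Without the library labelled SIR female 5 these were 0.36 (adjusted p = 0.0134) and -0.54 (adjusted p = 0.00857). With the 3 region components in the fit they were 0.06 (adjusted p = 0.72) and -0.19 (adjusted p = 0.222). Its level was 638 ± 63.8 CPM (SD, n = 8) in SIR and 503 ± 58.3 CPM (n = 8) in control females, and 540 ± 61.7 CPM (n = 7) and 608 ± 82 CPM (n = 8) in the males. Gnas (2770 ± 262 TPM) and Pcsk2 (255 ± 39.9 TPM) were the most abundant genes of the list. In females DESeq2 called 2 genes of the list higher and 1 lower (Gnas, Pcsk2 and Pomc), and limma-voom called Pcsk2 alone. In the interaction both called Pcsk2 alone. Of 13 genes of steroid synthesis and transport (8 tested), 0 were called by housing by edgeR, DESeq2 or limma-voom, and 0 had an unadjusted p below 0.05. Of all genes, edgeR called 4.55% over both sexes, 1.33% in males and 4.62% in females. Unadjusted values below 0.05 were reached by 22.1%, 17.6% and 20%. Cyp11a1, which starts steroid synthesis from cholesterol, fell by 0.73 on the log2 scale in males relative to females (SE 0.24, adjusted p = 0.0464). This call was lost in 21 of the fits with 1 library left out. DESeq2 also made it and limma-voom did not. The adrenal enzyme Cyp21a1 and the corticosteroid-binding globulin Serpina6 were listed at 0 in all libraries, and the drug transporter Abcb1a (26.6 ± 2.59 TPM) and the reductase Srd5a1 (7.69 ± 0.869 TPM) were the most abundant of the list.

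Of 15 clock genes, several of which are known to respond to glucocorticoids, Nr1d2 fell by 0.30 on the log2 scale in SIR males (SE 0.07, edgeR adjusted p = 0.0206). In SIR females Nr1d1 rose by 0.28 ± 0.08 (adjusted p = 0.0347) and Cry2 by 0.16 ± 0.05 (adjusted p = 0.0476). These female calls held in 32 (Nr1d1) and 20 (Cry2) of 43 alternatives, and without the library labelled SIR female 5 the adjusted p was 0.0493 and 0.0541. The male call of Nr1d2 held in 36. The interaction passed for Nr1d2 (-0.40 ± 0.09, adjusted p = 0.0119) and Cry2 (-0.28 ± 0.07, adjusted p = 0.0194). With the 3 region components these were -0.17 (adjusted p = 0.311) and -0.14 (adjusted p = 0.311), and in females Nr1d1 was 0.11 (adjusted p = 0.577) and Cry2 0.04 (adjusted p = 0.801). The most abundant clock genes were the output factors Hlf (185 ± 25.4 TPM) and Tef (128 ± 14.8 TPM). Of 11 immediate early genes (10 tested), edgeR, DESeq2 and limma-voom called 0 by housing or in the interaction, with 1 at an unadjusted p below 0.05 over both sexes and 0 in the other 3 comparisons. Their most abundant members were Egr1 (43.8 ± 16.2 TPM) and Fos (35 ± 13.1 TPM). As background for both lists, edgeR called 2.83% of all genes in the interaction and 4.55% for the sexes combined. Within females it called 4.62% and within males 1.33%. Unadjusted values below 0.05 were reached, in this order, by 15.3%, 22.1%, 20% and 17.6%.

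Between labelled males and females, members of these lists passed beside Fkbp5 and Crhr1. Arc, a synaptic activity gene, fell by 0.47 on the log2 scale in males relative to females (SE 0.09, edgeR adjusted p = 0.00261). The clock repressor Nr1d1 was higher in males by 0.30 ± 0.06 (adjusted p = 0.0013) and the clock output gene Dbp by 0.42 ± 0.10 (adjusted p = 0.0112), while Clock was lower (-0.22 ± 0.05, adjusted p = 0.00878). Med1 (-0.16, adjusted p = 0.0117) and Ncor1 (-0.12, adjusted p = 0.0119) were lower in males and Stub1 (0.11, adjusted p = 0.0392) higher, called in 40, 41 and 22 of 43 alternatives. Of the induced genes, Pdk4, a kinase that spares glucose, was lower in males (-0.27 ± 0.08, adjusted p = 0.032), which makes 1 of 22 called, beside 10.1% of all genes. In the CRH family, Gnas, which encodes the G protein subunit that couples CRH receptors to cyclic AMP, was higher in males (0.11 ± 0.03, adjusted p = 0.0198). Without the library labelled SIR female 5, 10 of these 10 calls of list genes by sex, Cyp11a1 included, still passed. With each library left out in turn, the call was lost in 21 fits for Cyp11a1, 15 for Stub1 and 5 for Pdk4, and in 0 for the others.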

How the data were processed

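Thalamus RNA of 31 mice was measured by RNA-seq. Extraction was by a Qiagen AllPrep kit and the polyadenylated RNA was turned into stranded Illumina mRNA libraries by ligation, per the labels' protocols. Per the submitters' processing notes, FastQC, kallisto and the build GRCm39 were used, with versions and the use of strand not given in the sources used here. Antisense and overlapping genes are therefore uncertain. For each of 105878 transcripts the authors deposited an estimated count, which is kallisto's share of the reads before any scaling. The deposited TPM value divides it by the effective length and scales each library to the same total. The effective length is another deposited value.

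Transcripts were matched by identifier to GENCODE M21, an annotation of GRCm38 (104949, 99.12%), and the estimated counts of a gene's transcripts were added up and then rounded. The 929 unmatched transcripts took 0.69% to 0.76% of a library's counts. Pairs of libraries of a group differed by 5.36 to 55.02 times sampling noise (chi-square per degree of freedom), so each was 1 sample. Groups came from the titles. Litters and batches are not given, so p-values measure the spread between these libraries only.

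Genes were tested with edgeR 4.0.16 (R 4.3.3; filterByExpr, TMM, robust quasi-likelihood fit of 4 group means) over all 31 libraries, with Benjamini-Hochberg adjustment over 14886 genes at 0.05. CPM is relative to TMM-scaled library totals and given as mean ± SD; log2 differences are given ± SE. On simulated counts for the comparison over both sexes, 65% of changes of 0.25 and 94% of changes of 0.5 on the log2 scale were recovered (200 changed among 14807 genes, 7 false calls). The changed genes were drawn above a minimum expected count, which Crh and Crhr2 do not reach. Whether the recovery rates and the count of false calls hold for the real libraries was not tested. There, the calls over both sexes were 678 in the reported fit and 97 with the length trend removed. Without the 8 libraries numbered apart they were 0. In the real fit over both sexes the SE was 0.22 for Sgk1, 0.24 for Crhbp, 0.32 for Crh and 0.45 for Crhr2. For these 4 members a change of 0.5 could be missed. Within a sex and in the interaction, which were not simulated, the SE was larger. For Tsc22d3 it was 0.10 over both sexes, 0.14 in males and 0.20 in the interaction, so such a change could be missed there for other members too. Correlations used log2 CPM with a prior count of 2, centred within groups where said, with two-sided permutation p-values of 100000 resamples. A list score is the mean of its genes' centred values.

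Alternatives were RLE and upper quartile scaling, no filter or at least 1 CPM in 15 libraries, tests by DESeq2 1.42.0, by limma-voom and by limma-trend on log2(TPM + 1) (limma 3.58.1), removal of a trend with transcript length, 3 components of region marker scores as covariates, and libraries left out. Shares of transcripts were compared by exact permutation. Sequences are from RefSeq tables of GRCm38.p6, used apart from the files' coordinates. The members and lists were chosen with earlier results of these data known. Named genes are the members, list genes called in a comparison (at most 4 a list and comparison by smallest p), the 2 most abundant of each list, and the 3 genes most like each member (5 for the mean of the targets).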

Additional observations from a re-analysis of the deposited data

Results flagged for a closer look

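In 5 of the 40 combinations of a member and a group, 1 library stood far from the others of its group by a Dixon test of the gap against the range. Chance gives about 1 in 20 where values are normally spread. The test was run on CPM and not on the log2 scale, and all 5 were the highest of their group. That rate may therefore not hold here, and no excess over chance can be read from the 5. SIR female 10 was the highest of its group for Tsc22d3 (222 CPM, next 141, gap 0.64 of the range) and for Sgk1 (248 CPM, next 124, 0.61). It also had the highest score of the 22 induced genes, 0.74 on the group-centred log2 scale. SIR male 13 held 2.52 CPM of Crh (next 1.2, 0.57), with a group-centred hypothalamus score of 1.463. Control female 20 held 3.96 CPM of Crhr2 (next 0.755, 0.84), with a hypothalamus score of 2.685 and a choroid plexus score of 3.507. Control female 31, the shallowest library, held 7.2 CPM of Crhbp (next 4.43, 0.53), with a midbrain score of 1.238. The part of these scores in the outlying values was not tested.

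The housing difference of males minus that of females passed for Pcsk2 (-0.51), Nr1d2 (-0.40) and Cry2 (-0.28) on the log2 scale. Each was called in 42 of 43 alternatives, the exception being the fit with 3 region components.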

How the results depend on the processing

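No paired analysis was possible because the groups share no replicate number. No member fell under the filter, so the test planned for such members was not run. The count of members called was 0 by housing and 2 by sex under the scaling, filter and tool alternatives, with these exceptions: on log2(TPM + 1) it was 1 over both sexes (Nr3c2) and 1 by sex (Crhr1), without the 8 libraries numbered apart it was 1 by sex (Crhr1), with 1 library left out the interaction count ran from 0 to 1, and without control female 20 the count by sex was 3 (with Crhr2). Crhr1 by sex was called in 43 of 43 alternatives (-0.45 to -0.31) and Fkbp5 in 41. Over all genes, the calls over both sexes ranged from 0 by edgeR without the 8 libraries numbered apart to 1132 by DESeq2, and were 97 with the length trend removed. Without the library labelled SIR female 5 they were 308 in place of 678. With 1 library left out they ran from 220 (control male 25) to 1042 (control female 20). In males they were 198 in the reported fit, 38 with the length trend removed and 723 with region components, and 0 without control male 22, 17 without SIR male 15, 23 without SIR male 6, 26 without control male 25 and 506 without control male 27; in females 688, 45 without the 8 libraries and 360 without SIR female 3; in the interaction 422, and 223 on log2(TPM + 1); by sex 1502, and 516 without the 8 libraries. The causes were not tested.

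Of the target correlations, Fkbp5 with Tsc22d3 was 0.42 within controls, 0.27 on log2(TPM + 1) and 0.36 without the 8 libraries. Tsc22d3 with Sgk1 was 0.31 and Fkbp5 with Sgk1 -0.03 within controls. Sgk1-204 with the induced genes was 0.01 without the 8 libraries.

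Uncalled log2 differences of members changed sign as follows. Over both sexes, Nr3c1 was 0.00 by limma-voom, -0.05 on log2(TPM + 1) and -0.01 with region components, Sgk1 -0.07 and -0.21 in the last 2, Tsc22d3 -0.04 and Crhr2 0.07 with region components, and Crhr1 0.05 without the 8 libraries. In males, Crhr2 was -0.55 by limma-voom and -0.39 with region components, Crhbp -0.18, -0.02 (TPM) and -0.16, and Crh 0.01 without the 8 libraries. In females, region components gave -0.05 for Fkbp5, -0.14 for Tsc22d3, -0.24 for Sgk1, 0.54 for Crhr2 and 0.07 for Crhbp. In the interaction, Nr3c2 was 0.00 by upper quartile scaling and on log2(TPM + 1), 0.04 with region components and 0.01 without the 2 shallowest libraries, Crhr2 -0.27 by limma-voom and -0.93, Sgk1 0.06 and Crhbp -0.23 with region components, and Tsc22d3 -0.16 without the 8 libraries. By sex, Crhbp was -0.08 by limma-voom, -0.04 on log2(TPM + 1) and -0.36 with region components, Nr3c1 and Nr3c2 0.01 with the length trend removed and 0.04 and 0.05 with region components, and Tsc22d3 -0.01 with the latter.

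With each library left out in turn, ranges that crossed 0 were, over both sexes, Crhr2 -0.46 to 0.26, Fkbp5 -0.06 to 0.01, Nr3c1 -0.02 to 0.03 and Sgk1 -0.08 to 0.19. In males they were Crh -0.61 to 0.16, Crhbp -0.03 to 0.42, Crhr2 -0.10 to 0.52 and Sgk1 -0.21 to 0.00. In females they were Crhr2 -1.14 to 0.30, Sgk1 -0.09 to 0.45 and Tsc22d3 -0.07 to 0.13. In the interaction they were Crhr2 -0.09 to 1.35, Hsd11b1 -0.01 to 0.11, Nr3c2 -0.05 to 0.03, Sgk1 -0.53 to 0.02 and Tsc22d3 -0.04 to 0.17. By sex they were Crhbp -0.09 to 0.14, Nr3c1 -0.04 to 0.00 and Nr3c2 -0.04 to 0.00. Depth limits Crh and Crhr2 most, with as few as 2 and 0 counts in a library.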
